A study of Homo sapiens with 3 samples.

Results

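Endothelial cells set the width of the vessels they line by releasing and processing vasoactive mediators. The accessible chromatin of 10 genes of this system was described in hCMEC/D3 cells, which descend from microvessels of the human brain and were immortalized. The genes were taken by symbol: NOS3, EDN1, EDNRB, ECE1, ACE, PTGS1, PTGS2, PTGIS, NPR1 and APLN. All 10 were found among the 20037 protein-coding genes of the 24 chromosomes with peaks. Between them they held 72 of the 106415 peaks called, counting every peak that overlapped a gene or the 10 kb on either side.

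The series is filed under a study of endothelial diversity among the organs of the mouse. It holds 3 libraries of hCMEC/D3, 2 of RNA and 1 of ATAC, and has no other cell type, genotype, treatment or time. The cells came from a commercial stock, were used within a narrow range of passages and had reached confluence on collagen. ATAC-seq tags DNA that the transposase Tn5 can reach, so tags pile up at open promoters and enhancers. All values below come from the ATAC library, replicate 2. With 1 library and no second group, no value carries a replicate error and no test was made. A cultured line of 1 origin does not show what vessels in the brain do.

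The mediators act in opposite directions. Nitric oxide, made by the endothelial synthase encoded by NOS3, and prostacyclin, made from arachidonic acid by cyclooxygenases and the synthase encoded by PTGIS, relax smooth muscle. Endothelin and angiotensin II, which need the converting enzymes encoded by ECE1 and ACE to become active, constrict it, while natriuretic peptides and apelin act through receptors that lower vascular tone.

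Every member had a peak in the gene or within 10 kb, 10 of 10, where 89.8% of protein-coding genes did. A peak within 1 kb of a gene end was found for 9 of 10, all except EDNRB, against 72.8% of protein-coding genes. RefSeq start sites were listed for 9 members, and 8 of these had a peak over at least 1 start window, the 250 bases before and 50 bases after a start. NOS3 was the exception. The background share was 70.2% of the 15843 protein-coding genes with a listed start. These differences from the background rest on 10 genes, were not tested and turned with the peaks counted. Among peaks with a fold of at least 4, 5 of 10 members had an end peak against 56.0% of protein-coding genes, and 4 of 9 had a covered start against 54.3%.

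The number of peaks ran from 1 at PTGS2 to 21 at ECE1. Of the 72 peaks, 15 lay within 1 kb of a gene end, 44 lay elsewhere inside a gene and 13 lay in the flanks. Some inside peaks, at EDN1, EDNRB, ECE1 and PTGS1, lay over start windows, so the end peaks are not all of the peaks at starts. No such split over all protein-coding genes is given. Pileup is the caller's depth of extended tags, which for a broad peak is a mean over its length, not a summit height. That of the 72 peaks ran from 9.73 to 66.3 with a median of 23.4, compared with 21.6 over all peaks. Their lengths lay between 200 and 2108 bp, and the median, 506.5 bp, compared with 452 bp over all peaks. The members' median fold, pileup over the local background, was 4.18 and the median of all peaks was 4.49. In these 3 measures the pooled 72 peaks thus sat close to the middle of the whole list. ECE1 gave 21 of them, and the median pileup by gene ran from 13.9 tags at EDNRB to 40.8 at EDN1.

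**Figure D1:**
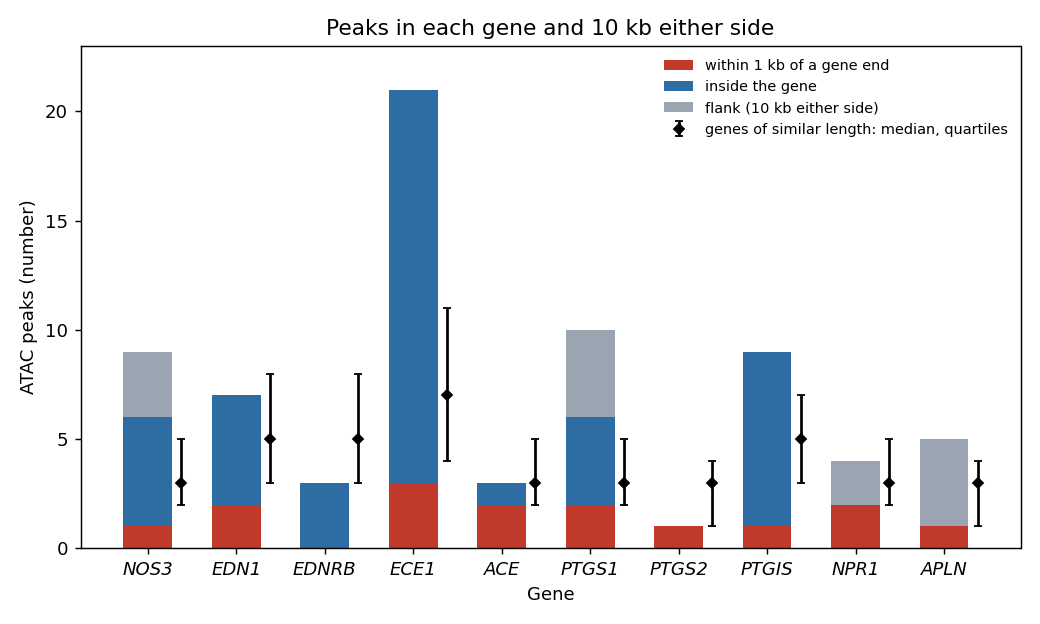
Number of ATAC peaks (y axis) for each gene (x axis), stacked by position: within 1 kb of a gene end (red), inside the gene (blue) and in the 10 kb flanks (grey). Diamonds with bars give the median and quartiles of protein-coding genes within a factor of 5/4 in length. ECE1 has 21 peaks against a median of 7, and PTGS2 has 1 against a median of 3.

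The stretches of DNA in front of 4 starts are shown because they mark the range of what was found: EDN1 had the highest pileup over a start, NOS3 had no peak over its starts, PTGS2 had a single peak, and APLN had the longest peak. Each is the 250 bases before the start, 5′ to 3′ on the strand of the gene, from RefSeq, build GRCh38.p14. Capitals mark matches to any of 7 motifs that under 30% of all listed promoters hold, explained further on; APLN has none.

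EDN1, chr6:12290111-12290360, plus strand: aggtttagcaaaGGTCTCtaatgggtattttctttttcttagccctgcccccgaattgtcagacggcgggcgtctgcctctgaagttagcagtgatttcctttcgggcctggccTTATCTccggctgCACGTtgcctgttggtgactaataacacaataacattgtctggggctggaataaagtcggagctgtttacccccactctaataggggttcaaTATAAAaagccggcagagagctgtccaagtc

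NOS3, chr7:150993532-150993781, plus strand: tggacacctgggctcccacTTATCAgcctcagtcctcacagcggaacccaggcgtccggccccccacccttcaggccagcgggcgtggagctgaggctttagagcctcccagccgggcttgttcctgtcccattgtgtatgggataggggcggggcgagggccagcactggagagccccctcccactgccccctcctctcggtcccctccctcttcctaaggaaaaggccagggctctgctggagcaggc

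PTGS2, chr1:186680424-186680673, minus strand: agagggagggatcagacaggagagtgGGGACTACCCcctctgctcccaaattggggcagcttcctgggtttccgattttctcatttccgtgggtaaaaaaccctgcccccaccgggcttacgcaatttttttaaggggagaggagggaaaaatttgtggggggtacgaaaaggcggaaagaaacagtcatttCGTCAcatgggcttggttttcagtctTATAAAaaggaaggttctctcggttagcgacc

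APLN, chrX:129654957-129655206, minus strand: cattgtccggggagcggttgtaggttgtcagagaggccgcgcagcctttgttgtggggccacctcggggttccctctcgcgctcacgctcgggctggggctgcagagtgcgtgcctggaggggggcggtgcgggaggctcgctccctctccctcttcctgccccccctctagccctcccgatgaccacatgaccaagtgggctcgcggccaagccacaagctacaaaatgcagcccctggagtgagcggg

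EDN1 encodes the precursor of endothelin, a potent constrictor peptide. The gene held 7 peaks, and 4 of them formed a run of 9.8 kb on chromosome 6 from 12289466 to 12299267, with 3612 bp of peak in all. The peak at the start of the run, 12289466 to 12290564, was 1099 bp long and reached 65.7 tags at a fold of 3.98. It covered 2 of the 3 RefSeq starts. The next 3 peaks had pileups of 46.0, 45.7 and 40.8 tags but folds of only 2.22, 2.23 and 2.43. The local background that these folds imply was 15.8 to 20.2 tags across the run, while the floor of the library is 2.37 tags. The background is computed from pileup and fold, so it restates these values on the scale of tags.

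The other 3 EDN1 peaks lay far from this run. They were weak, with pileups of 18.2, 13.5 and 9.73 tags, and each sat on the background floor. The gene table gives EDN1 an extent of 66.7 kb, because it begins 57503 bases before the most upstream of the 3 listed starts. These 3 peaks lay 53656, 12577 and 7235 bases before that start. The upstream start itself, at 12288019, had no peak in its window, and the nearest one began 1447 bases downstream.

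ECE1 encodes the membrane protease that cuts big endothelin to its active form. It is the longest member, at 128.3 kb, and held 21 peaks with 16180 bp in all, 3 near its ends, 18 inside and 0 in the flanks. All 4 listed starts were covered. The most upstream start lay under a peak of 1282 bp with 49.5 tags and a fold of 4.31. A pair of starts 248 bases apart shared a peak of 1211 bp with 23.9 tags, and the most downstream start lay at the edge of a peak of 1771 bp with 43.7 tags.

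The highest pileup of ECE1 was not at a start. It belonged to a peak of 1058 bp on chromosome 1 from 21324255 to 21325312, with 62.4 tags and a fold of 5.49, which lay 20192 bases inside the gene from the most upstream start. A peak of 1448 bp from 21261712 to 21263159, with 55.4 tags, reached an end of the long noncoding gene LOC124903872. The highest fold, 7.37, was that of a peak of 452 bp from 21252089 to 21252540 with 48.9 tags. Strong peaks were thus spread along the gene, and its weakest had 12.9 tags.

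EDNRB encodes the endothelin receptor that endothelium carries, which clears the peptide and triggers nitric oxide release. In 80041 bp it held 3 peaks, 0 of them within 1 kb of a gene end, and all 3 stood on the background floor. Their pileups were 10.1, 16.9 and 13.9 tags. The last of these, on chromosome 13 from 77918951 to 77919656, lay between the 2 listed starts of EDNRB, 55845 and 56696 bases from the upstream end of the gene in the table. It covered 24 bases of one start window and 131 bases of the other. The other 2 peaks overlapped the antisense gene EDNRB-AS1. In this library the top pileups of EDN1 and ECE1 were therefore close, at 65.7 and 62.4 tags, and that of EDNRB was lower, at 16.9 tags. The folds of their highest peaks over a start were 3.98, 4.31 and 4.41.

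NOS3 encodes the endothelial nitric oxide synthase. It held 9 peaks around 23.6 kb of gene, yet neither of its 2 listed starts, 150993782 and 150993804 on chromosome 7, had a peak in its window. The nearest peaks lay on either side. One from 150992763 to 150993101, 339 bp long, ended 681 bases before the upstream start, with 52.5 tags and a fold of 4.61. One from 150994539 to 150995061, 523 bp long, began 735 bases after the downstream start, with 31.3 tags. The sequence printed for NOS3 falls in the gap between them.

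The highest peak of the NOS3 locus lay upstream, from 150988514 to 150989259, 4523 bases before the start, with 56.0 tags and a fold of 5.43. The peak 7418 bases before the start had 23.2 tags. These upstream peaks and the pair beside the starts formed a run of 4 peaks over 9.0 kb. The remaining 5 peaks, in the body and past the far end, were lower, with 18.1 to 25.9 tags. The last 2 of them, at pileups of 25.9 and 22.9 tags, lay within ATG9B, an autophagy gene that overlaps the far end of NOS3 by 2380 bp. The single NOS3 peak within 1 kb of a gene end was one of these, 419 bp past that end, so the count of gene ends and the count of starts treat NOS3 in opposite ways, as they do EDNRB.

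ACE encodes the enzyme that makes angiotensin II and breaks down bradykinin. It held 3 peaks over 21.3 kb. The start at the upstream end of the gene was fully covered by a peak of 605 bp with 14.3 tags and a fold of 2.45, the lowest −log10 q of the 72 peaks at 1.84. A peak 1724 bases into the gene, on chromosome 17 from 63478785 to 63479269, was much higher, with 47.5 tags and a fold of 7.76. The second listed start of ACE, 7785 bases inside the gene, lay 5577 bases from the nearest peak. At this locus the strong signal thus lay beside the start rather than on it.

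PTGS1 and PTGS2 encode the cyclooxygenases, the constitutive and the inducible form, that supply the precursor of prostacyclin. Around PTGS1, of 25.2 kb, there were 10 peaks, 2 near its ends, 4 inside and 4 in the flanks. Its upstream start had no peak in its window, and the nearest peak began 286 bases after it with 15.1 tags. The start 4769 bases further in was covered by a short peak of 310 bp with 19.1 tags. The peaks of PTGS1 with the highest pileups were one of 1129 bp inside the gene, 8160 bases after that start, with 45.7 tags and a fold of 6.19, and one of 667 bp in the flank. The flank peak, on chromosome 9 from 122402313 to 122402979, had 45.2 tags and the highest fold of all members, 9.06, and overlapped the noncoding gene LOC124902264.

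PTGS2 had 1 peak, on chromosome 1 from 186680066 to 186681105. It was 1040 bp long with only 16.9 tags and a fold of 5.07, and it covered the whole start window. The same peak reached the noncoding gene PACERR, which begins 231 bases beyond the start of PTGS2, and ATAC signal has no strand, so the starts share it. PTGS1, the longer of these genes, therefore had many peaks of varied pileup, and PTGS2 a single long one of low pileup.

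PTGIS, prostacyclin synthase, held 9 peaks in 64.3 kb, 8 inside the gene and 1 at an end, where it also reached the noncoding gene LOC101927486. The end peak had 18.7 tags over 327 bp. The highest was inside, on chromosome 20 from 49510499 to 49511210, with 46.1 tags and a fold of 7.02. A second peak of 936 bp had 38.1 tags, and the remaining 6 ran from 14.4 to 22.9 tags. The peak with the highest pileup counted as lying at a gene end for PTGS2 alone, which had no other peak. For the other 9 members it lay inside the gene or in a flank. The EDN1 peak counted as inside nevertheless covered 2 listed starts, and the NPR1 flank peak lay at the end of ILF2. No share over all protein-coding genes is given beside this count.

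NPR1 encodes the receptor guanylate cyclase for atrial natriuretic peptide. Its start lay under a peak of 1347 bp on chromosome 1 from 153678590 to 153679936, with 31.7 tags and a fold of 4.24. A short peak of 276 bp with 21.1 tags lay 696 bases before the start. The 2 flank peaks belonged to neighbours by position. One, with 66.3 tags, the highest pileup counted for any member, lay at the end of ILF2 and over a transfer RNA gene, and the other, with 45.7 tags, at the end of the pseudogene GEMIN2P1. ILF2 was the only other protein-coding gene with an end within 1 kb of a member's flank peak.

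APLN encodes apelin, a vasodilator peptide of sprouting endothelium. Its start lay under the longest of the 72 peaks, 2108 bp on the X chromosome from 129654015 to 129656122, with 33.2 tags and a fold of 3.15. That length was above 99.6% of all peaks in the list. The gene itself, 9.7 kb long, held no other peak. The flanks held 4, of which the highest, 320 bp with 44.5 tags, lay 8244 bases before the start and the others, with 18.8 to 23.6 tags, beyond the far end.

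**Figure D2:**
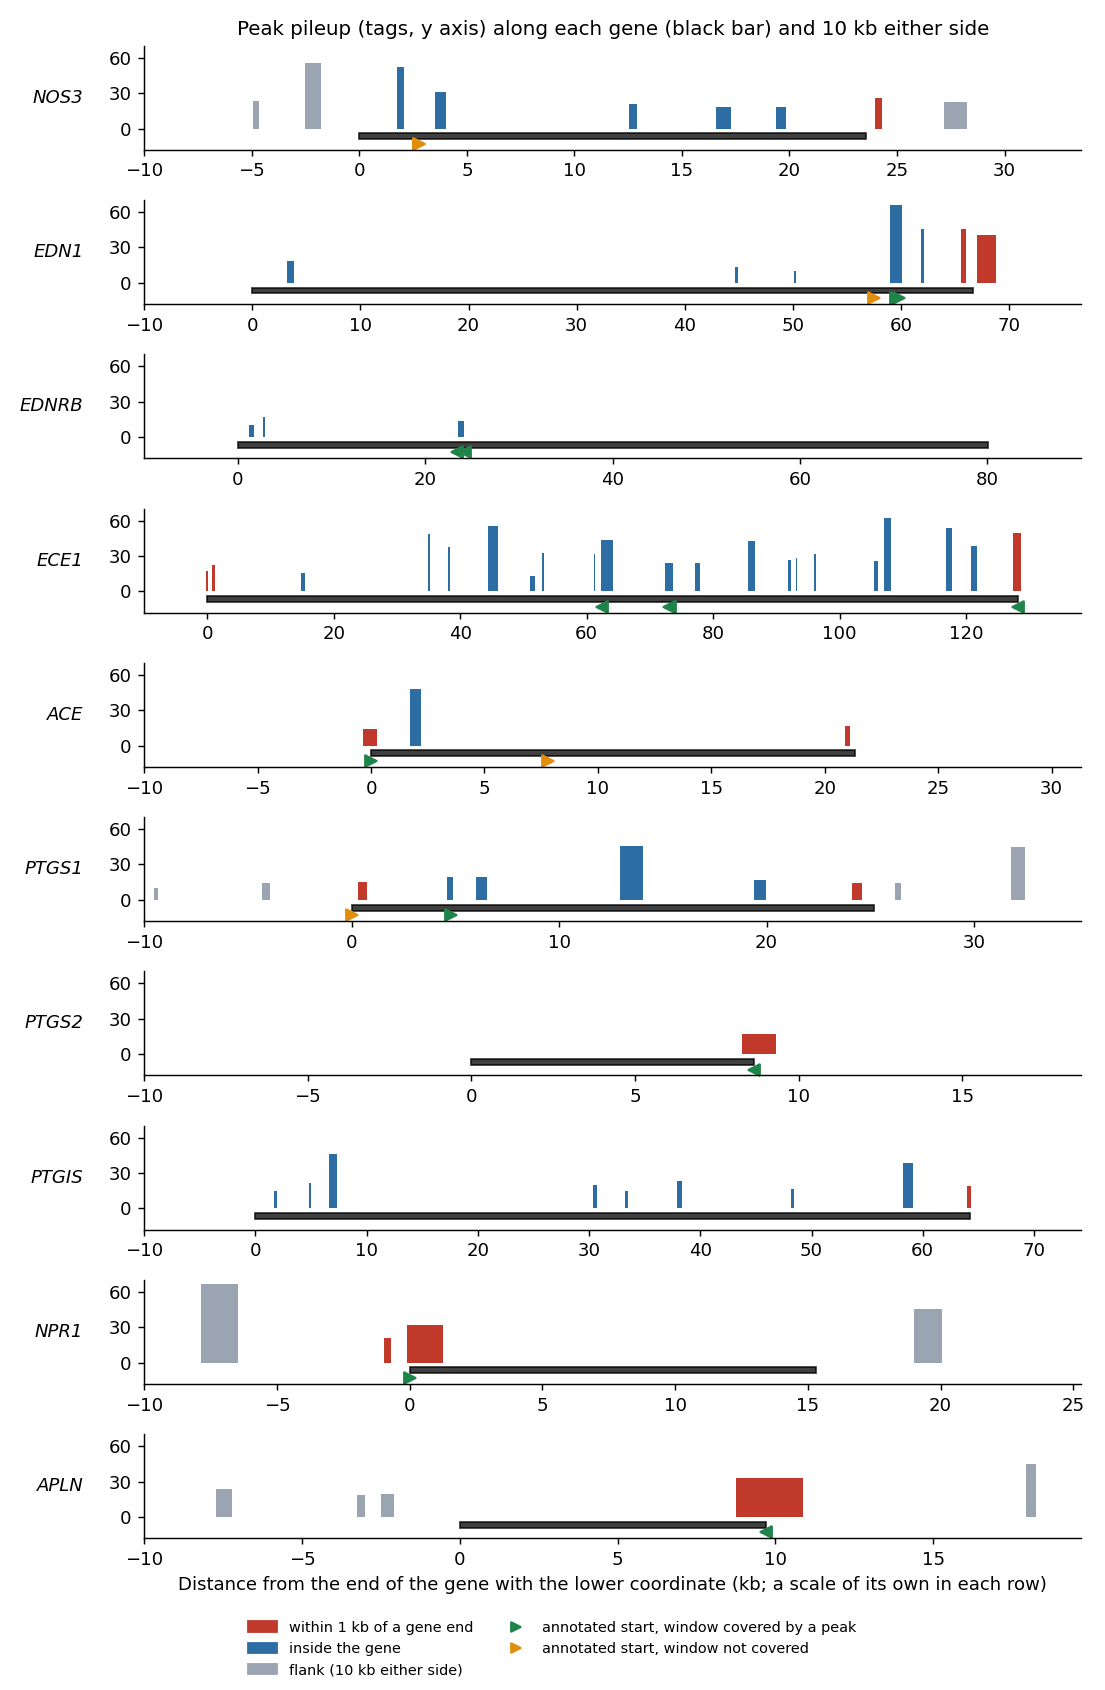
Peaks along each gene, 1 row per gene: the x axis is the distance in kb from the gene end with the lower coordinate, on a scale of its own in each row, and the height of a bar is the pileup in tags. Black bars are genes, arrowheads are RefSeq starts (green covered, orange not); the NOS3 starts fall between 2 peaks, and EDN1 has a run of 4 peaks of 40.8 to 65.7 tags at its right.

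Peaks over starts can be set in order of pileup. EDN1 came highest with 65.7 tags, followed by ECE1 with 49.5, APLN with 33.2 and NPR1 with 31.7. PTGS1 with 19.1, PTGS2 with 16.9, ACE with 14.3 and EDNRB with 13.9 formed a lower group. The median over the 11114 protein-coding genes with a covered start was 47.8 tags, with quartiles at 34.3 and 61.7. Only EDN1, at percentile 80.4, and ECE1, at percentile 53.3, were above that median, and the 4 genes of the lower group were at or below percentile 8.8. In length, APLN stood at percentile 96.9 of these start peaks, EDN1 at percentile 49.3 and PTGS1 at percentile 2.4. Fold gave another order, with PTGS2 highest at 5.07 (percentile 49.0), then EDNRB at 4.41 (percentile 32.9) and ECE1 at 4.31 (percentile 30.6). EDN1 followed NPR1 with 3.98 (percentile 22.8), and ACE came lowest with 2.45 (percentile 1.1). None of the 8 genes reached the median fold of 5.11 over the protein-coding genes with a covered start. Each order rests on 1 library and has no replicate check.

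**Figure D3:**
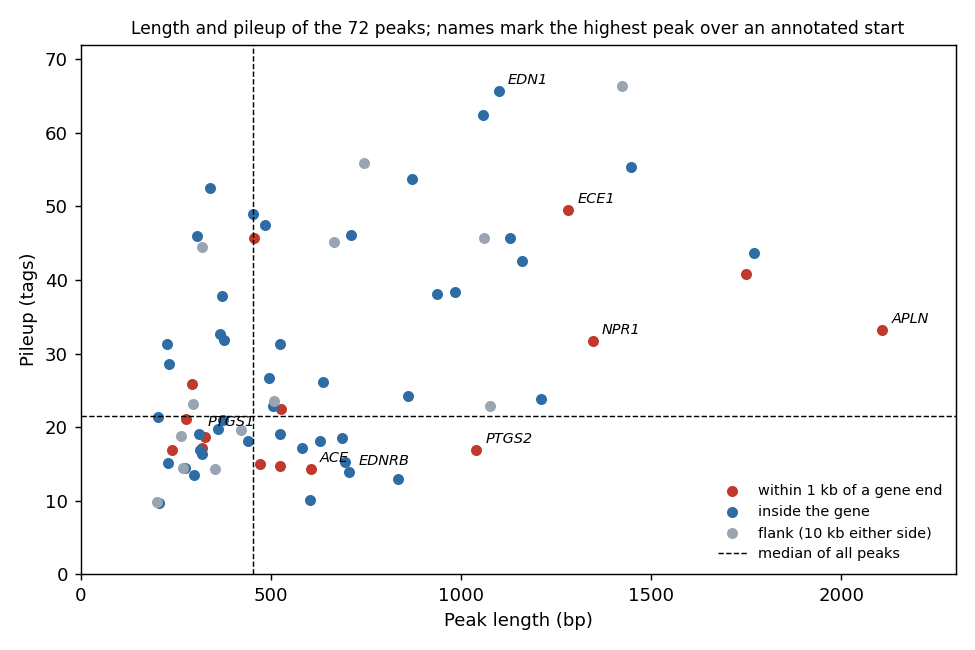
Length in bp (x axis) against pileup in tags (y axis) for the 72 peaks, coloured by position; dashed lines are the medians of all 106415 peaks, 452 bp and 21.6 tags. Names mark the highest peak over a start of each gene: EDN1 is at the top with 65.7 tags, APLN at the far right with 2108 bp, and PTGS1, PTGS2, ACE and EDNRB lie below the dashed line.

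The members' starts also differed in CpG content, which was compared because it goes with accessibility at starts in general. CpG content is given as the number of CG pairs in the 300-base window over the number that its C and G would give. Over 22199 starts of protein-coding genes, 64.8% had a peak in the window, with 11.3% in the lowest of 10 equal groups by CpG content and 92.4% in the highest. Of the members' 18 starts, 13 were covered. The 5 without a peak had CpG ratios of 0.16 (ACE, downstream start), 0.21 (PTGS1, upstream), 0.34 and 0.36 (NOS3) and 0.56 (EDN1, upstream).

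Covered starts ran from 0.29 to 0.87. Covered starts with a ratio below that of the uncovered EDN1 start were the most downstream ECE1 start, at 0.29, and the downstream PTGS1 start, at 0.32. Starts in the same CpG group as those of NOS3 were covered in 29.8% of cases, and starts in the group of PTGS2, APLN and NPR1 in 80.4%. The covered ECE1 start at 0.29 and PTGS1 start at 0.32 were in the same group as the uncovered NOS3 starts, and the uncovered EDN1 start was in a group with 55.6% covered. The members' starts therefore did not all follow the majority of their group.

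**Figure D4:**
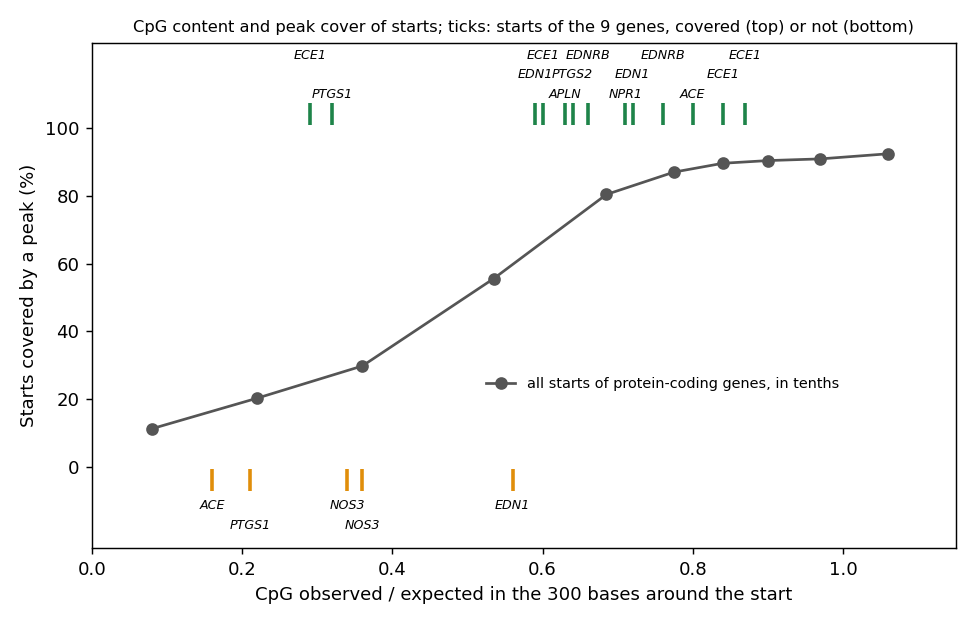
Share of starts of protein-coding genes with a peak in the window (y axis, percent) in 10 equal groups by CpG observed over expected (x axis), rising from 11.3% to 92.4%. Ticks are the 18 starts of 9 members, covered at the top and not covered at the bottom; the 5 uncovered starts have ratios from 0.16 to 0.56.

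Short motifs of factors active in endothelium were searched in the same windows on both strands. The ETS core, CGGAA or AGGAA, was in 16 of 18 member starts, in 77.6% of all 35097 listed promoters and in 78.1% of the 22199 protein-coding starts. The KLF motif CACCC was in 12 of 18 (59.9% of promoters, 63.4% of protein-coding starts) and the GC box GGGCGG in 12 of 18 (44.9% and 56.3%). The 7 motifs set in capitals above were rarer. GATA, as AGATAA or AGATAG or TGATAA or TGATAG, was in 4 of 18 (25% and 20%), the hypoxia element ACGTG in 6 (21.4% and 23%), the cAMP element TGACG in 3 (24.5% and 27.9%) and the shear stress element GAGACC in 5 (15.9% and 16.6%). The NF-kB motif was in 5 (25.6% and 29.0%), the TATA box TATAAA in 4 (11.5% and 9.5%) and the AP-1 motif TGANTCA in 0 (7.7% and 6.2%). Starts of 1 gene can lie so close that their windows overlap, as at NOS3 and ECE1, and share matches; a match is a string of letters and says nothing of binding.

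At the EDN1 start shown, a TATA box match began 31 bases before the start, a hypoxia element match 123, a GATA match 136 and a shear stress element match 238 bases before it. At PTGS2, a TATA box match began 32 bases before the start, a cAMP element match 58 and an NF-kB match 224. EDN1 and PTGS2 were the members with a TATA box match on the gene's own strand at that distance; ACE had one 31 bases before its upstream start on the opposite strand. The NOS3 window shown held 1 of the rarer motifs, GATA, 231 bases before the start. A shear stress element match lay 200 bases before the NPR1 start, and at ECE1 such a match overlapped one of NF-kB.

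Because long genes collect more peaks, each member was set against all protein-coding genes within a factor of 5/4 of its length, between 1404 genes for ECE1 and 2393 for PTGS1. PTGS1 with 10 peaks stood at percentile 98.9 of its class, NOS3 with 9 at percentile 97.8 and ECE1 with 21 at percentile 96.5. Their classes had medians of 3, 3 and 7 peaks. APLN with 5 peaks stood at percentile 86.6, PTGIS with 9 at percentile 85.5, EDN1 with 7 at percentile 70.2 and NPR1 with 4 at percentile 66.8. ACE at percentile 46.7, EDNRB at percentile 24.7 and PTGS2 at percentile 22.1 were below the middle of their classes. In all, 7 of 10 were above it, with a median of 77.85, where the median of a class is 50 by construction. The classes of EDN1 and EDNRB rest on gene extents that begin at least 57503 and 55845 bases before their listed starts. Other extents were not tried.

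Peak number and pileup gave different orders. By the highest pileup in the gene and flanks, PTGS1 was at percentile 39.3 of the genes of its class that had a peak, NOS3 at percentile 58.6 and ECE1 at percentile 70.7. NPR1, at percentile 75.6, and EDN1, at percentile 75.2, came highest, and for NPR1 that peak was the one at ILF2. EDNRB at percentile 5.3 and PTGS2 at percentile 9.1 were low in both when the flanks were counted. The flanks changed the rank of several genes: without them PTGS2, the shortest, went from percentile 22.1 to percentile 48.0, APLN went from percentile 86.6 to percentile 44.2 and NPR1 from percentile 66.8 to percentile 33.3, while ACE went from percentile 46.7 to percentile 78.9. Peaks with a fold of at least 4 alone put EDN1 at percentile 29.1. The 10 kb limit set which peaks count: the outermost inside it lay 9325 bp from PTGS1 with 9.81 tags, and the nearest outside it 10381 bp from PTGS1 with 16.4 tags and 10722 bp from APLN with 55 tags.

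A wider list of 51 genes of the same pathways was counted in the same way. A peak within 10 kb was found for 47 (92.2%), a peak at a gene end for 35 (68.6%) and a covered start for 25 of the 38 with a listed start (65.8%), each near the shares of all protein-coding genes. That held with all peaks counted. Under peak filters the end-peak share fell further below that of all genes, as given further on. The counts by branch were small, and differences between branches were not tested; over all protein-coding genes, 72.8% had a peak at an end. All 14 prostanoid genes had a peak at an end. TBXAS1, thromboxane synthase, had 16 peaks, the most in that branch, but no covered start. Of the 10 renin-angiotensin-kinin genes 2 had an end peak, and AGT and MME had a covered start without one. By covered starts the contrast was smaller. Of the genes with a listed start, 9 of 11 prostanoid (81.8%) and 3 of 7 renin-angiotensin-kinin genes (42.9%) had one, against 70.2% of protein-coding genes. In the nitric oxide branch 9 of 11 had an end peak, and DDAH1, which breaks down an inhibitor of nitric oxide synthase, had 39 peaks.

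In the endothelin branch 3 of 4 genes had an end peak. EDNRA, the receptor typical of smooth muscle, had 10 peaks with a top pileup of 55.1 tags, against 3 peaks and 16.9 tags for EDNRB. In the natriuretic branch 4 of 6 had one, and NPR3 had the most peaks, 8. Among apelin and adrenomedullin genes 3 of 6 had one, with 9 peaks at CALCRL. No peak was called within 10 kb of EDN3, AGTR2, APELA or APLNR. APLNR is the receptor of apelin, whose gene APLN had 5 peaks, 4 of them in the flanks. The lowest pileup called anywhere was 8 tags, so for these genes accessibility below that level could not have been seen. Calling also depends on the local background, so signal above 8 tags could have been missed too.

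**Figure D5:**
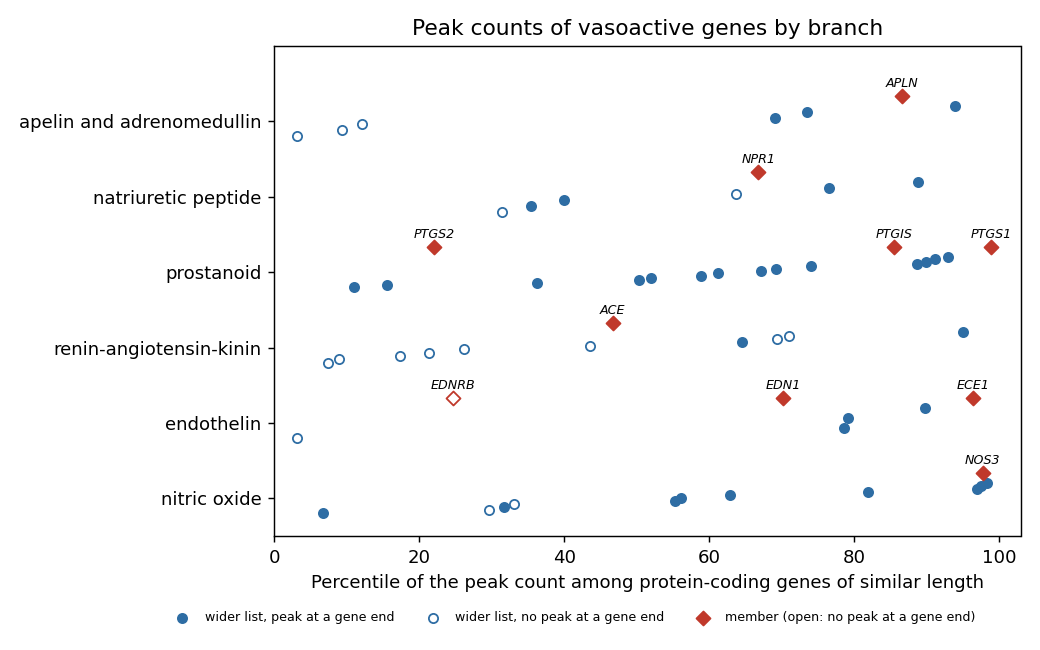
Percentile of each gene's peak count among protein-coding genes of similar length (x axis), by branch of the vasoactive system (y axis). Circles are the 51 genes of the wider list, filled where a peak lies at a gene end; red diamonds are the 10 members, from PTGS2 at percentile 22.1 to PTGS1 at percentile 98.9, with EDNRB open.

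The labelled cell type was checked on markers of accessibility only. All 10 endothelial markers, among them CDH5, PECAM1 and TEK, had a peak at a gene end. So did 4 of 5 mural markers, 3 of 5 neural and glial markers, 2 of 3 leukocyte markers and 1 of 2 epithelial markers. The median percentile of peak number was 92.2 for the endothelial list, 58.3 for the mural, 65.1 for the neural and glial, 70.4 for the leukocyte and 48.1 for the epithelial list. KCNJ8 of mural cells and AQP4 of astrocytes had 0 peaks within 10 kb. Single genes nevertheless overlapped between the lists. CSPG4 and PDGFRB of mural cells stood at percentiles 99.1 and 97.7, GFAP of astrocytes at 98.8 and CD68 of leukocytes at 98.0. Among endothelial markers, PECAM1 stood at percentile 99.8, CLDN5 at 68.7 and KDR at 48.0. Together the markers of other cell types had an end peak in 10 of 15 (66.7%), against 72.8% of all protein-coding genes, and the part of other cells in the results above was not tested.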

How the data were processed

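Per the file headers, the authors called broad peaks with MACS 2.2.7.1 on 1 ATAC library without a control, in single-end mode although the labels give paired-end reads, shifting tags by -100 bp and extending them to 200 bp, at q of 0.05 and 0.1. The header gives 31532245 tags, 22188172 after removal of duplicates, and a genome size of 1870000000 bp, the mouse preset. The deposited columns are peak length, pileup signal, fold over local background, −log10 p-value and −log10 q-value; all are the authors' values. Each enters only as a description within this list. The submitters' processing notes list Bowtie2, SAMtools 1.13 and Picard, and the builds GRCh38 and mm10 with no role. GRCh38 coordinates were checked on annotated starts: 64.8% of start windows were covered, and 5.8% after moving all peaks by 10 kb.

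Genes came from a RefSeq table of GRCh38.p14 and starts from a RefSeq promoter table that holds 9 of the 10 members, not PTGIS. Overlap meant at least 1 bp. Local background was computed as (pileup + 1) / fold - 1. Pileup and fold of a broad peak are means over its length, so this value is approximate. Percentiles, taken within a factor of 5/4 in length, count ties at equal weight on both sides. Counting was checked on simulated peaks. Python 3.11.15 and pandas 2.3.3 were used. The RNA tables were not analysed here, since their transcript identifiers are not paired with genes in the tables used. Members and lists were chosen with earlier results of these data known. Named from the wider list are the gene with most peaks in each branch and genes without a peak; 1 such gene is not reported here. Alternatives varied the peak filter, windows, flanks, overlap, length class and neighbours.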

Additional observations from a re-analysis of the deposited data

How the results depend on the processing

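No paired analysis was possible because the ATAC group is 1 library. Of 186 alternative values, 121 stayed near the reported one and 65 moved; near means inside the 95% Wilson interval of a percentile, or a count changed by at most 1.5-fold. With a fold of at least 4, the members' 72 peaks became 38, where all 106415 peaks became 66460. Members with an end peak became 5 of 10 (56.0% of protein-coding genes) and members with a covered start 4 of 9 (54.3%). Wider-list genes with an end peak became 21 of 51 (56.0% of protein-coding genes). Keeping as many peaks by highest pileup left 5 of 9 members with a covered start (65.0%) and 6 of 10 with an end peak (65.6%); this filter, and all peak filters on start coverage, were chosen after seeing the data. Under both filters these 2 shares of the members lay below those of all genes, not above. With −log10 q of at least 5 they stayed above, at 8 of 10 with an end peak (66.7%) and 7 of 9 with a covered start (65.5%). A peak in the gene or within 10 kb was kept by 10 of 10 under the fold filter (84.2%) and 8 of 10 under the pileup filter (82.5%). In the wider list, 26 of 51 had an end peak under the pileup filter (65.6%) and 28 of 51 under the q filter (66.7%). Its end-peak share was thus below that of all genes under each peak filter. These filters have fewer peaks by construction. The other alternatives for these counts stayed within 1.5-fold. Under the pileup filter EDNRB and PTGS2 kept 0 peaks, ACE 1 and PTGS1 4, with PTGS1 at percentile 75.9. NOS3 stayed at or above percentile 90 and ECE1 at or above 92.6 in all 7 alternatives. The background floor, which scales inversely with the genome size set in the header, was where 10 of the 72 peaks (13.9%) and 34.7% of all peaks stood. The planned expression values of the members were not made.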

Other observations

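The 3 genes of the wider list that ranked highest in peak number within their length class all belong to the nitric oxide branch; they were picked out after their values were seen. DDAH1 had 39 peaks in 259.7 kb (percentile 98.4). DDAH2 had 6 peaks around only 3.2 kb (percentile 97.5) and CAV1, which encodes the caveolin that binds the endothelial synthase, had 10 peaks in 36.2 kb (percentile 97.0) with a top pileup of 84.0 tags. Other genes of the branch, also picked after the fact, were low, with 1 peak for GUCY1A1 (percentile 6.7) and 3 for GUCY1B1 (percentile 33.1), the subunits of the cyclase that senses nitric oxide in smooth muscle. Which gene a flank peak serves was not tested.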
